A study of Homo sapiens with 12 samples.

Results

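The genes described here are 8 regulators of mitochondrial biogenesis, chosen by name: the PGC-1 coactivators PPARGC1A, PPARGC1B and PPRC1, the transcription factors ESRRA, NRF1 and GABPA, and the mitochondrial transcription factors TFAM and TFB2M. They are 8 of the 26364 genes in the table, and all 8 were among the 14297 genes with enough counts to be tested. They were read from RNA-seq gene counts of 12 libraries of A2058, a human melanoma cell line grown in culture. The 4 groups of 3 libraries were cells transduced with a lentiviral MITF vector, cells with the same vector left empty, cells transfected with siRNA against MITF, and cells transfected with scrambled siRNA. Vector cells were selected with puromycin and siRNA cells were transfected by lipofection for 48 hours, so the 2 control groups differ in how they were handled. Whether the vector cells are 1 clone, and how many siRNA sequences were used, the sources used here do not say. Each group's 3 libraries are labelled as independent biological replicates, with no word on how they were separated, so p-values measure no more than their spread.

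Mitochondria carry their own small genome, but most of their proteins are made from nuclear genes. PGC-1 coactivators do not bind DNA themselves. They dock on transcription factors such as ERRα (the product of ESRRA), NRF1 and GABPA, and these switch on nuclear genes of respiration as well as TFAM and TFB2M, whose products enter mitochondria and start transcription of the mitochondrial genome. In melanoma, PPARGC1A is known as a gene that MITF can activate, in cells that rely on oxidative metabolism.

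Levels are given as CPM, counts scaled to library size with TMM factors, and are compared between groups for 1 gene at a time, never between genes. Total counts ran from 7427637 to 23938392 per library. The lowest Pearson's r between libraries of a group, over genes on the log2 scale, was 0.991, and none were identical. All 6 markers of melanoma and melanocytes had counts in every group, while CD3E of T cells and KRT5 of keratinocytes were at 0 in all 4. Summed keratinocyte markers reached at most 0.456 CPM, from KRT14 with a few reads and KRT1 with 1 read, and summed endothelial markers at most 1.29 CPM. All 3 fibroblast markers had counts, summing to 30.8 to 34.7 CPM with the MITF vector and 23.2 to 24.8 CPM with the empty vector. With MITF siRNA they summed to 18.0 to 22.0 CPM and with scrambled siRNA to 16.2 to 19.4 CPM. Counts of 2 of 3 leukocyte markers were present, summing to 0.273 to 0.712 CPM with the MITF vector and 1.75 to 2.34 CPM with the empty vector. With MITF siRNA they summed to 6.71 to 7.50 CPM and with scrambled siRNA to 3.85 to 4.66 CPM. LYZ made most of these sums, averaging 0.398, 2.11, 6.99 and 3.85 CPM in that order of groups, and PTPRC had at most 6 reads in a library. The part of these markers in the results was not tested. The nuclear RNA MALAT1 took 1.22% to 1.27% of counts with the MITF vector, against 0.480% to 0.666% with the empty vector. Its share was 0.273% to 0.635% with MITF siRNA and 0.553% to 0.758% with scrambled siRNA. In bulk RNA, fewer cells expressing a gene and less RNA per cell cannot be told apart.

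MITF itself moved as labelled. It stood at 658, 679 and 633 CPM in the MITF overexpression libraries and at 299, 311 and 301 CPM with the empty vector (2.16-fold higher). With MITF siRNA it stood at 343, 322 and 365 CPM, against 504, 465 and 431 CPM with scrambled siRNA, and fell by 26.4%. The order of the groups in MITF was therefore overexpression, scrambled siRNA, MITF siRNA and empty vector, and all 3 neighbouring pairs in that order passed the test.

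PPARGC1A, the coactivator PGC-1α, followed that same order in its group means, but its last step, from MITF siRNA to the empty vector, did not pass. Its levels were 34.2, 38.8 and 32.7 CPM with the MITF vector, against 8.74, 10.9 and 7.58 CPM with the empty vector. Every library with the MITF vector lay well above every empty vector library. The counts behind these values were 495 to 792 reads per library with the MITF vector and 75 to 127 with the empty vector. It rose 3.96-fold, a log2 fold change of 1.99 (SE 0.11), with an adjusted p = 5.71e-17. Here and throughout, p comes from the quasi-likelihood test of edgeR, adjusted by Benjamini-Hochberg over all tested genes and called under 0.05. It ranked as number 214 among the log2 fold changes of the 14297 genes, counted from the largest rise.

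RefSeq gives 2 start sites of PPARGC1A a promoter window in build GRCh38.p14, each from 250 bases before the start to 50 after it, and gene counts do not tell which start was used. They are shown because both hold an E-box, the kind of site that MITF binds. Capitals mark motif matches, and the windows are written 5′ to 3′ on the gene's strand.
PPARGC1A, chr4:24472856-24473155, minus strand: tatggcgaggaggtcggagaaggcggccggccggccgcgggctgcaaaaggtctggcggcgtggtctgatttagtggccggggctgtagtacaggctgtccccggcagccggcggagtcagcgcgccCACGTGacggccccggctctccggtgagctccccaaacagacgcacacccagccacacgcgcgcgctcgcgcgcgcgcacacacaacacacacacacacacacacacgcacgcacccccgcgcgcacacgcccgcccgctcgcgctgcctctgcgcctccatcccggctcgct
PPARGC1A, chr4:23881052-23881351, minus strand: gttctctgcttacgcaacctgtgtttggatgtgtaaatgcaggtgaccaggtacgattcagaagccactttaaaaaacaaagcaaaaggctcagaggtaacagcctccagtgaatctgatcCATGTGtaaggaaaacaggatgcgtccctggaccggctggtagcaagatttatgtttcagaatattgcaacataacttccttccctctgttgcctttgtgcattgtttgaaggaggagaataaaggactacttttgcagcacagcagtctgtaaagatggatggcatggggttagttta
The first window holds CACGTG 123 bases before the start and the second CATGTG 129 bases before it. On either strand, CACGTG was found in 7.26% and CATGTG in 11.1% of all 35116 windows of the table, and 17.6% held one or the other. A match is a string of letters and not a measured binding site.

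With MITF siRNA, PPARGC1A stood at 9.64, 10.9 and 10.1 CPM, against 15.1, 11.9 and 11.9 CPM with scrambled siRNA. The groups did not overlap, but scrambled siRNA replicate 1 stood apart at the top. The gene fell by 20.9% (log2 fold change -0.34 (SE 0.11), adjusted p = 0.0155), and the call ended without scrambled siRNA replicate 1 (-0.22, adjusted p = 0.162) or without MITF siRNA replicate 1 (-0.30, adjusted p = 0.0549). Scrambled siRNA libraries lay above empty vector libraries, with group means of 13.0 ± 1.84 and 9.07 ± 1.67 CPM (SD, n = 3 each; log2 fold change 0.54 (SE 0.13), adjusted p = 9.53e-04). MITF siRNA and empty vector libraries, at 10.2 ± 0.625 and 9.07 ± 1.67 CPM, overlapped and did not pass the test (log2 difference 0.20, 95% interval -0.055 to 0.45).

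**Figure D1:**
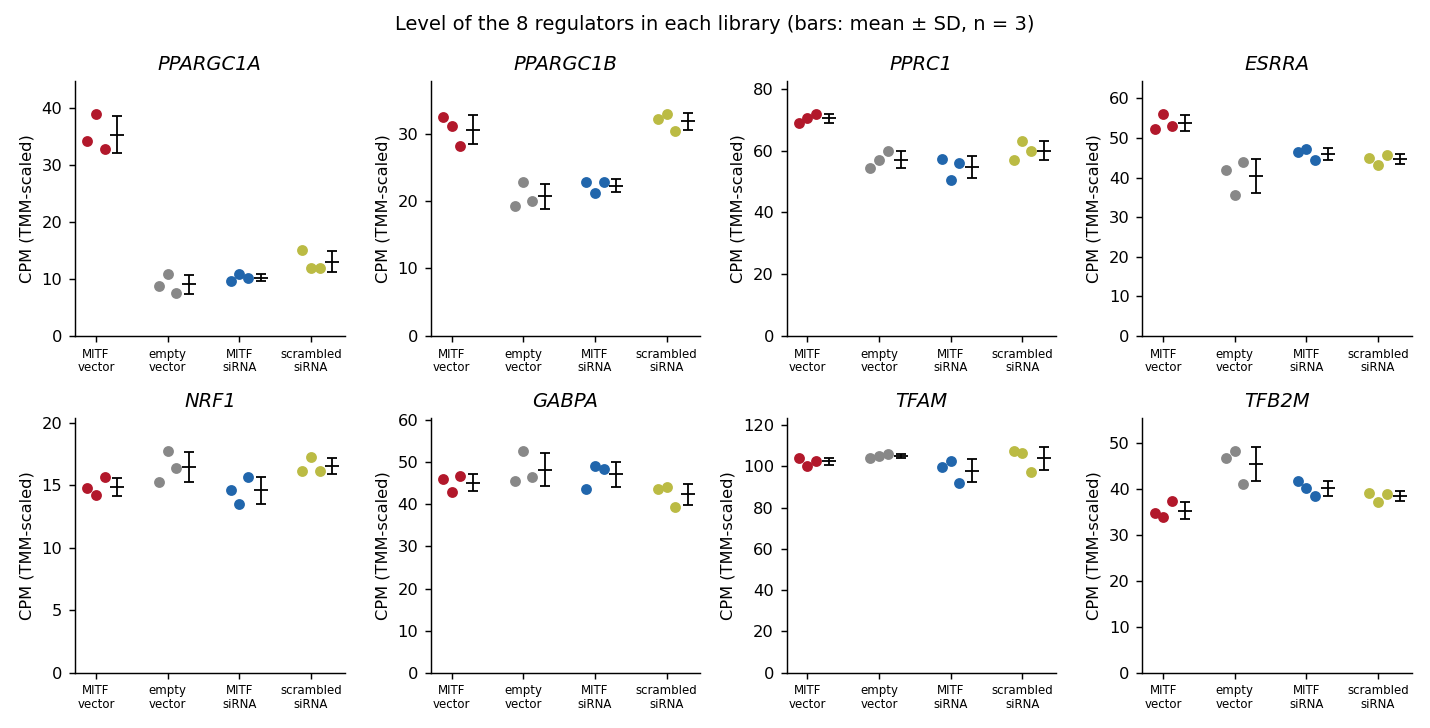
CPM of each regulator in each library, with groups in the order MITF vector, empty vector, MITF siRNA and scrambled siRNA. Points are libraries and bars show the mean ± SD (n = 3). PPARGC1A lies at 32.7 to 38.8 CPM with the MITF vector and at 15.1 CPM or below in all other libraries, while TFAM stays between 91.8 and 107.5 CPM throughout.

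PPARGC1B, the coactivator PGC-1β, is the relative of PPARGC1A that also docks on ERRα. It stood at 32.5, 31.1 and 28.2 CPM with the MITF vector, against 19.3, 22.8 and 20.0 CPM with the empty vector, with no overlap. It rose by 0.58 on the log2 scale (SE 0.079, adjusted p = 8.29e-08). With MITF siRNA it stood at 22.8, 21.2 and 22.9 CPM, against 32.2, 32.9 and 30.4 CPM with scrambled siRNA. Every MITF siRNA library lay below every scrambled siRNA library, and the gene fell by 29.9% (log2 fold change -0.51 (SE 0.072), adjusted p = 7.57e-07). The 12 libraries thus formed a high level, of the MITF vector and scrambled siRNA, and a low level, of MITF siRNA and the empty vector. MITF overexpression and scrambled siRNA libraries, at 30.6 ± 2.19 and 31.8 ± 1.30 CPM, overlapped (log2 difference -0.051, 95% interval -0.19 to 0.091). So did MITF siRNA and empty vector libraries, at 22.3 ± 0.959 and 20.7 ± 1.86 CPM (log2 difference 0.12, 95% interval -0.042 to 0.29). Between the levels, MITF overexpression exceeded MITF siRNA by 0.46 on the log2 scale (adjusted p = 6.60e-07), and scrambled siRNA exceeded the empty vector by 0.64 (SE 0.081, adjusted p = 8.40e-08). Its RefSeq window, shown because it holds none of the motifs searched, is the following.
PPARGC1B, chr5:149771690-149771989, plus strand: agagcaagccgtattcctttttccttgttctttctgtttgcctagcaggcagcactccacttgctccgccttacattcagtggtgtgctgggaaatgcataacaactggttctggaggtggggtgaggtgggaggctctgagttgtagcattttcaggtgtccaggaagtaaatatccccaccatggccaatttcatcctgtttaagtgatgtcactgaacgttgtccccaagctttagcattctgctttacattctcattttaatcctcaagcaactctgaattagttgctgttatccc

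**Figure D2:**
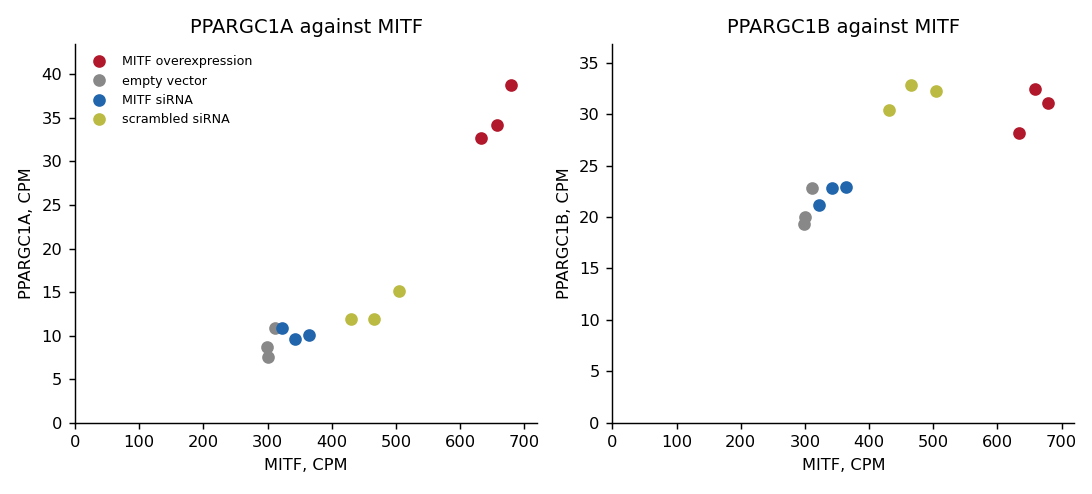
CPM of PPARGC1A (left) and PPARGC1B (right) against CPM of MITF, 1 point per library and 1 colour per group. PPARGC1A is 32.7 to 38.8 CPM in the 3 libraries with the most MITF, whereas PPARGC1B is 28.2 to 32.9 CPM both there and in the scrambled siRNA libraries.

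PPRC1 encodes the PGC-1-related coactivator, which is known from growing cells. Its 3 values with the MITF vector, 68.9, 70.4 and 71.7 CPM, lay above all empty vector values, 54.2, 57.0 and 59.96 CPM. It rose 1.24-fold (log2 fold change 0.31 (SE 0.059), adjusted p = 3.32e-05). MITF overexpression also exceeded scrambled siRNA, the next group in order (0.23, adjusted p = 8.92e-04). With MITF siRNA its values were 57.1, 50.4 and 56.1 CPM, against 56.9, 63.1 and 59.8 CPM with scrambled siRNA, and 1 MITF siRNA library lay within the scrambled range. That difference did not pass (log2 fold change -0.14 (SE 0.057), adjusted p = 0.0620). It passed when empty vector replicate 2 or 3, MITF siRNA replicate 1 or 3 or scrambled siRNA replicate 1 was left out (adjusted p 0.0346 to 0.0486), and with total-count scaling. Scrambled siRNA, empty vector and MITF siRNA, in descending order, did not differ between neighbours.

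The 3 coactivators therefore rose together with the MITF vector, where 28.6% of all tested genes were called higher. With MITF siRNA, PPARGC1A and PPARGC1B passed as lower, where 16.7% of all genes did, and PPRC1 (-0.14) missed the threshold. The siRNA calls of PPARGC1A and PPRC1 both changed when certain single libraries were left out, as given above. The response to the vector minus the response to siRNA was 2.33 (SE 0.16) on the log2 scale for PPARGC1A, 1.098 (SE 0.11) for PPARGC1B and 0.44 (SE 0.082) for PPRC1. All of these passed the test of the difference, with adjusted p of 1.95e-14, 9.00e-11 and 2.26e-05.

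ESRRA encodes ERRα, an orphan nuclear receptor that binds DNA and draws in PGC-1 coactivators. It stood at 52.3, 56.0 and 52.9 CPM with the MITF vector, against 41.9, 35.6 and 43.9 CPM with the empty vector, without overlap. ESRRA rose by 0.40 on the log2 scale (SE 0.064), or 1.32-fold, with an adjusted p = 2.22e-06. MITF siRNA gave 46.4, 47.1 and 44.4 CPM and scrambled siRNA 45.0, 43.3 and 45.8 CPM, which overlapped (log2 fold change 0.039, 95% interval -0.085 to 0.16). The response to the vector exceeded the response to siRNA by 0.36 (SE 0.088, adjusted p = 8.78e-04). In order of level, MITF overexpression exceeded MITF siRNA (0.23, adjusted p = 9.86e-04), and the remaining neighbours, scrambled siRNA and empty vector, did not pass. MITF siRNA, which is not next to the empty vector in that order, lay above it by 0.17 (adjusted p = 0.0335). That call was lost without each of 6 libraries, with total-count scaling and by DESeq2. TRMT112, on the opposite strand, shares 11.6% of the ESRRA exon bases in GENCODE 29, and how the counting treated strand is unknown here. TRMT112 moved the other way with the MITF vector (log2 fold change -0.34 (SE 0.056), adjusted p = 3.37e-06). With MITF siRNA against scrambled siRNA it rose (0.15 (SE 0.053), adjusted p = 0.0245), where ESRRA did not pass. TRMT112 stood at 0.093 between MITF siRNA and the empty vector (adjusted p = 0.177) and at -0.059 between the controls (adjusted p = 0.444). The part of shared reads in the ESRRA values was not tested. Processed copies of ESRRA exist in the genome (ESRRAP1 and ESRRAP2), so a share of its reads is uncertain. The ESRRA window is shown because it holds an E-box, CATGTG, 187 bases before the start. The core of the NRF1 site, GCGCATGC read on the other strand, lies 29 bases before it.
ESRRA, chr11:64305274-64305573, plus strand: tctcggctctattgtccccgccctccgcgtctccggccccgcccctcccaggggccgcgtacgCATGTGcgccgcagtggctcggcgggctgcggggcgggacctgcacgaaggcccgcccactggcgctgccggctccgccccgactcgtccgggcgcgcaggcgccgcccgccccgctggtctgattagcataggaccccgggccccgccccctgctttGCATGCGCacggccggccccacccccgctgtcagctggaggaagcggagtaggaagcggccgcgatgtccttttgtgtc

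Among the windows of the 7 regulators that RefSeq gives (8 windows, none for NRF1), 3 held a MITF E-box. They were both windows of PPARGC1A and that of ESRRA, and 17.6% of all windows held such an E-box. The NRF1 core was found in the windows of ESRRA and TFB2M and in 3.05% of all windows. The ETS site of GABPA, CCGGAAGT, was found in the window of GABPA and in 4.14% of all. The full palindromic NRF1 site, which contains the core, and the ERR element TCAAGGTCA with its core AAGGTCA were in none of the 8 windows. They were in 1.24%, 0.353% and 3.92% of all windows. The shorter ETS core CCGGAAG, contained in the site above, was in 10.3% of all and only in the GABPA window here. Absence from these windows says nothing about the factors.

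NRF1, the DNA-binding activator of many respiratory chain genes, did not pass in any comparison. It stood at 14.8, 14.2 and 15.6 CPM with the MITF vector, against 15.3, 17.8 and 16.4 CPM with the empty vector. Its log2 fold change of -0.13 had a 95% interval of -0.32 to 0.054. With MITF siRNA it stood at 14.6, 13.5 and 15.7 CPM, against 16.1, 17.3 and 16.2 CPM with scrambled siRNA. Those groups did not overlap, yet the log2 fold change of -0.18 missed the threshold (SE 0.088, adjusted p = 0.119). Its counts ran from 129 to 371 per library.

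GABPA encodes the DNA-binding subunit of GABP, also called NRF2 in the mitochondrial literature. It stood at 46.0, 42.9 and 46.7 CPM with the MITF vector and at 45.6, 52.7 and 46.4 CPM with the empty vector. The log2 fold change was -0.084 (95% interval -0.22 to 0.050). MITF siRNA gave 43.7, 49.2 and 48.5 CPM, and scrambled siRNA 43.6, 44.1 and 39.4 CPM (log2 fold change 0.15 (SE 0.064), adjusted p = 0.0572, passing at 0.0181 without MITF siRNA replicate 1). The difference between the 2 responses passed narrowly (-0.24 (SE 0.092), adjusted p = 0.0266) and did not pass when any of 5 libraries was left out singly (adjusted p 0.0741 to 0.118), with total-count scaling or by DESeq2. Those libraries were empty vector replicate 2, MITF overexpression replicate 2, MITF siRNA replicates 2 and 3 and scrambled siRNA replicate 3. ATP5J, a subunit gene of ATP synthase, overlaps 7.77% of the exon bases of GABPA on the opposite strand, and its counts moved the same way as those of GABPA in several comparisons. ATP5J rose with MITF siRNA (log2 fold change 0.20 (SE 0.054), adjusted p = 0.00363) and was lower in the difference of responses (-0.23 (SE 0.078), adjusted p = 0.0133). It stood at -0.13 between scrambled siRNA and the empty vector (adjusted p = 0.0715) and at -0.026 with the MITF vector (adjusted p = 0.712). A processed copy of GABPA, GABPAP, also exists in the genome. The part of shared reads in the GABPA values was not tested.

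TFAM packages mitochondrial DNA and starts its transcription, and its level was the most even of the 8 across groups. It stood at 104.2, 100.4 and 102.6 CPM with the MITF vector, against 104.1, 105.3 and 106.1 CPM with the empty vector. The log2 fold change was -0.038 (95% interval -0.14 to 0.067), and it turned to 0.025 with total-count scaling. With MITF siRNA TFAM stood at 99.8, 102.4 and 91.8 CPM, against 107.5, 106.7 and 97.5 CPM with scrambled siRNA (log2 fold change -0.086, 95% interval -0.19 to 0.016). Without scrambled siRNA replicate 3 that value was -0.14 and passed (adjusted p = 0.0489). The highest group mean was 1.07 times the lowest, compared with 3.89 times for PPARGC1A. Processed copies of TFAM exist in the genome (TFAMP1 and TFAMP2), so a share of its reads is uncertain as well.

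TFB2M, the factor that opens the promoter for the mitochondrial RNA polymerase, was the regulator that fell with the MITF vector. It stood at 34.7, 33.7 and 37.3 CPM with the MITF vector, against 46.7, 48.2 and 41.1 CPM with the empty vector, without overlap. TFB2M fell by 22.3% (log2 fold change -0.36 (SE 0.066), adjusted p = 1.26e-05). MITF siRNA gave 41.6, 40.2 and 38.3 CPM and scrambled siRNA 39.1, 37.0 and 38.9 CPM, which overlapped (log2 fold change 0.061, 95% interval -0.068 to 0.19). The difference between the responses was -0.43 (SE 0.091, adjusted p = 1.57e-04). In order of level the empty vector came first, and MITF siRNA lay below it (log2 difference -0.18, adjusted p = 0.0246), although their libraries overlapped. This call was lost without empty vector replicate 1 or 2, without MITF siRNA replicate 3 (adjusted p 0.132, 0.0924 and 0.104) and by DESeq2 (0.0608). MITF siRNA, scrambled siRNA and MITF overexpression, in descending order, did not pass between neighbours. MITF overexpression minus MITF siRNA, which are not neighbours, passed at -0.19 (adjusted p = 0.00869) without overlap. That call was lost without MITF overexpression replicate 2 (adjusted p = 0.0752) and with total-count scaling (adjusted p = 0.140).

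**Figure D3:**
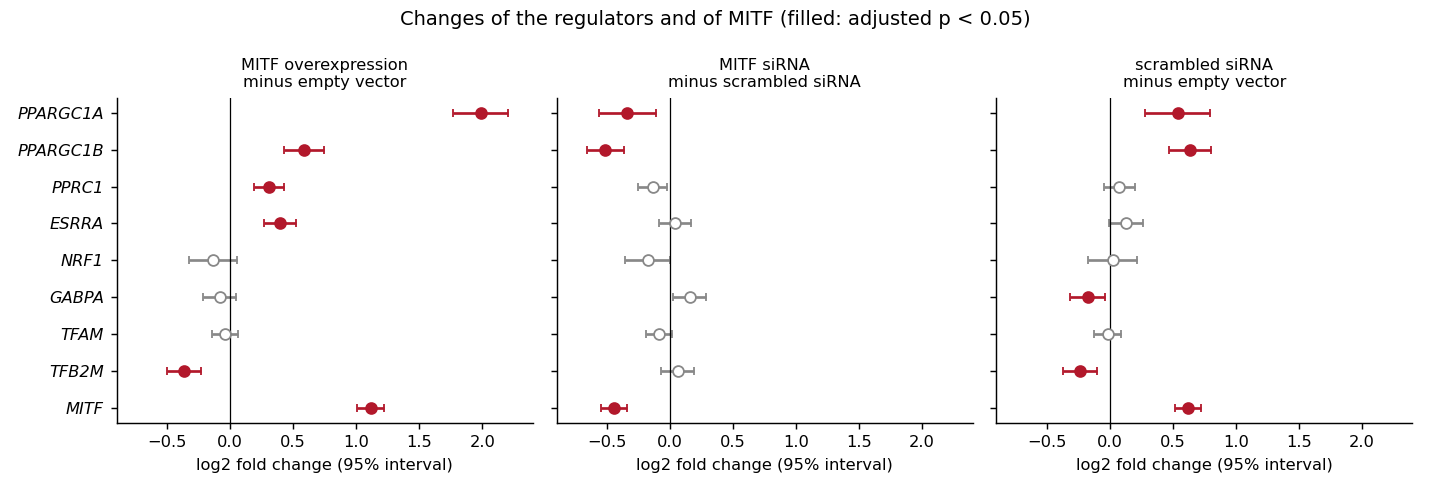
Log2 fold changes of the regulators and of MITF in 3 comparisons, with 95% intervals. Filled points passed the test. PPARGC1A reaches 1.99 with the MITF vector against 1.11 for MITF itself, and with MITF siRNA the filled regulators are PPARGC1A (-0.34) and PPARGC1B (-0.51).

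In count, 4 of the 8 regulators rose with the MITF vector and 1 fell, in a comparison in which 59.4% of all tested genes were called, 28.6% higher and 30.8% lower. Their groups did not overlap for 5 of 8, against 65.2% of all genes. With MITF siRNA, 0 rose and 2 fell by edgeR, where 35.4% of all genes were called, 18.7% higher and 16.7% lower. By DESeq2, 0 were higher too. At an unadjusted p under 0.05, 1 was higher, GABPA, and 3 were lower. The share of all genes at that looser threshold was not computed, so this count has no background to be read beside. The siRNA groups did not overlap for PPARGC1A, PPARGC1B and NRF1, 3 of 8, against 44.4% of all genes. The median log2 fold change of the 8 was 0.13 with the vector and -0.11 with siRNA, beside medians of 0.0037 and -0.0026 over all genes. In the difference of responses 4 were higher and 2 lower, beside 27.1% and 29.8% of all genes (56.9% called). Between scrambled siRNA and the empty vector 2 rose, PPARGC1A and PPARGC1B, and 2 fell, beside 18.9% and 19.6% (38.5% called). TFB2M fell by 0.24 on the log2 scale there (SE 0.067, adjusted p = 0.00477) and GABPA by 0.17 (adjusted p = 0.0426). The GABPA call was lost without empty vector replicate 2 or 3, MITF siRNA replicate 3 or scrambled siRNA replicate 3. Of all genes, 50.6% were called between MITF overexpression and scrambled siRNA, 62.8% between MITF overexpression and MITF siRNA, and 42.7% between MITF siRNA and the empty vector, the pairs used for the order of levels. The comparisons with the vector and between the controls share the empty vector libraries, and those with siRNA and between the controls share the scrambled ones.

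By shape over the 12 libraries, the genes closest to PPARGC1A were APOE, GREB1, HLX, ZNF106 and SLC19A2, among 12034 candidates. Likeness was the root mean square difference of the log2 CPM, each gene centred on its own mean. It was 0.17 for the first 4 and 0.18 for SLC19A2, where PPARGC1A itself varied by 0.78. SLC19A2, a thiamine transporter gene, averaged 197 CPM with the MITF vector against 55.9 CPM with the empty vector, and 56.6 CPM with MITF siRNA against 83.9 CPM with scrambled siRNA. APOE, which encodes a lipid carrier, averaged 228 against 61.0 CPM and 66.5 against 91.8 CPM in the same pairs. Closest to PPARGC1B were GPNMB, a melanosome and lysosome glycoprotein gene (0.058), ZFYVE16 (0.078) and SNAI2 (0.083), where PPARGC1B varied by 0.28. GPNMB averaged 710 CPM with the MITF vector against 490 CPM with the empty vector, and 504 CPM with MITF siRNA against 738 CPM with scrambled siRNA. Closest to PPRC1 were SNAPC4, RASA1 and UBAC2 (0.058 to 0.061, where PPRC1 varied by 0.15). The 12 libraries fall into 4 groups, so likeness over them rests largely on 4 levels.

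The gene lists that follow are to be read beside all tested genes, of which 28.6% were higher and 30.8% lower with the MITF vector, and 18.7% higher and 16.7% lower with MITF siRNA. Of 23 listed genes for partners that PGC-1 coactivators dock on, 20 were tested, and 11 rose and 1 fell with the MITF vector (median log2 fold change 0.30). In all 60% of them were called, near the 59.4% of all genes. PPARA, a fatty acid sensing nuclear receptor, averaged 48.8 ± 4.998 CPM with the MITF vector and 25.6 ± 1.79 CPM with the empty vector, a 1.92-fold rise (adjusted p = 1.54e-09). FOXO3 (0.44 (SE 0.053)) and the coactivator NCOA1 (0.44 (SE 0.063)) rose as well. FOXO3 averaged 94.6 CPM with the MITF vector and 88.3 CPM with scrambled siRNA, against 69.5 CPM with the empty vector. NCOA1 averaged 48.0, 44.2 and 35.4 CPM in the same order. PPARA averaged 31.5 CPM with scrambled siRNA. MEF2C, a transcription factor of muscle and neural crest, was the partner that fell, with 49.9 ± 2.93 CPM with the MITF vector against 80.1 ± 5.96 CPM with the empty vector. With MITF siRNA MEF2C rose 1.78-fold, to 135 ± 7.92 CPM against 76.1 ± 3.72 CPM with scrambled siRNA. In that comparison 3 partners rose and 8 fell (median -0.055), with SP1 among those that fell (-0.22 (SE 0.047)). Without scrambled siRNA replicate 2, or by DESeq2, 1 partner rose. Between scrambled siRNA and the empty vector, 12 of the 20 partners rose and 1 fell.

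Genes that act on PGC-1 from upstream had 9 up and 10 down of 31 with the MITF vector (median 0.011), shares close to those of all genes. CAMK2D, a calcium-dependent kinase, averaged 46.1 ± 2.36 CPM with the MITF vector against 96.8 ± 1.16 CPM with the empty vector (-1.07 (SE 0.052)). HIF1A, the hypoxia factor, fell (-0.91 (SE 0.045)) and MYC rose 1.94-fold (0.96 (SE 0.051)). FNIP1, the folliculin partner that restrains energy-sensing pathways, rose with the vector (0.40 (SE 0.049)) and fell with siRNA (-0.37 (SE 0.047)). FNIP1 averaged 104 CPM with the MITF vector and 101 CPM with scrambled siRNA. It averaged 78.7 CPM with the empty vector and 78.4 CPM with MITF siRNA. With MITF siRNA 3 rose and 8 fell (median 0.0061; 5 fell by DESeq2). PRKAG1, a subunit of the energy-sensing kinase AMPK, fell by 0.44 on the log2 scale (SE 0.055).

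Of 28 listed ERR and PGC-1 target genes of fuel use, 24 were tested, and 7 rose and 6 fell with the MITF vector (median 0.048). With 54.2% called they were near all genes. HADHA and HADHB, the subunits of the trifunctional enzyme of fatty acid oxidation, rose to 308 ± 8.16 and 186 ± 2.15 CPM with the MITF vector, against 221 ± 2.57 and 131 ± 7.98 CPM with the empty vector. CPT1A, which lets fatty acids into mitochondria, averaged 44.3 ± 2.604 CPM against 76.9 ± 2.61 CPM (-0.80 (SE 0.061)), and ACADVL also fell (-0.31 (SE 0.046)). ACADVL averaged 157 CPM with the MITF vector and 156 CPM with scrambled siRNA, against 195 CPM with the empty vector. For CPT1A, HADHA and HADHB scrambled siRNA gave 61.3, 234 and 131 CPM. With MITF siRNA 4 rose and 1 fell (median 0.044). GOT1 was the one that fell (-0.21 (SE 0.063), adjusted p = 0.00701). It missed the threshold without MITF siRNA replicate 3 or scrambled siRNA replicate 1 (adjusted p = 0.0514 and 0.0518). With total-count scaling the split was 2 up and 4 down. The number higher was 2 without empty vector replicate 3 or MITF siRNA replicate 2 and 1 without scrambled siRNA replicate 2. The number lower was 0 without MITF siRNA replicate 3 and 2 without MITF siRNA replicate 2.

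The antioxidant genes linked to PGC-1 had 4 up and 5 down of 12 with the MITF vector (median -0.051), beside 28.6% and 30.8% of all genes. GPX4 (0.38 (SE 0.055)) and PRDX5 (0.29 (SE 0.049)) rose, and GPX1 (-0.61 (SE 0.050)) and SOD1 (-0.27 (SE 0.045)) fell. PRDX5 averaged 116 CPM with the MITF vector and 117 CPM with scrambled siRNA, against 94.8 CPM with the empty vector. GPX4, GPX1 and SOD1 averaged 76.1, 99.2 and 205 CPM with the MITF vector and 62.7, 115 and 222 CPM with scrambled siRNA. With MITF siRNA 1 rose and 2 fell (median 0.093). SESN2, a stress-induced gene, was the one that rose (0.48 (SE 0.093)), and CAT, the catalase gene, fell (-0.35 (SE 0.047)). The number higher was 3 without scrambled siRNA replicate 1 and 2 without replicate 2, and the number lower was 4 without replicate 3.

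Nuclear genes that copy, transcribe and process the mitochondrial genome had 7 up and 10 down of 31 with the MITF vector (median 0.018). SSBP1, the mitochondrial single-stranded DNA binding protein, averaged 45.4 ± 2.66 CPM with the MITF vector against 80.1 ± 1.54 CPM with the empty vector (-0.81 (SE 0.061)). MTERF1, which binds mitochondrial DNA at a termination site, fell with the vector (-0.78 (SE 0.075)) and rose with siRNA (0.43 (SE 0.068)). SLIRP, a partner in mitochondrial RNA stability, fell with the vector (-0.41 (SE 0.058)). With MITF siRNA 4 rose and 3 fell (median -0.0088), and the protease gene LONP1 rose 1.37-fold. Messenger RNAs of the mitochondrial genome itself were not analysed here.

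Of 74 tested genes for subunits of the mitochondrial ribosome, 4 rose and 46 fell with the MITF vector (median -0.22), beside 28.6% and 30.8% of all genes, and 39 to 50 fell under every alternative tried. MRPL36 averaged 38.3 ± 2.02 CPM with the MITF vector against 82.8 ± 0.800 CPM with the empty vector, 2.17-fold lower. MRPL33 (-0.68 (SE 0.063)) and MRPL51 (-0.55 (SE 0.056)) fell too, while MRPS25 rose (0.54 (SE 0.061)). MRPL33 averaged 32.1 CPM with the MITF vector and 32.9 CPM with scrambled siRNA, against 51.3 CPM with the empty vector. MRPL36 and MRPL51 were lower with the MITF vector than with scrambled siRNA too, where they averaged 54.2 and 92.1 CPM. Between scrambled siRNA and the empty vector 1 of the 74 rose and 25 fell. With MITF siRNA 6 rose and 6 fell (median 0.025), with MRPL17 at 0.37 (SE 0.054) and MRPL35 at -0.54 (SE 0.053). The import machinery leaned the same way with the vector, with 3 up and 13 down of 30 (median -0.16; 5 up with total-count scaling). TIMM10 (-0.75 (SE 0.070)), TOMM5 (-0.46 (SE 0.053)) and TOMM22 (-0.44 (SE 0.058)) fell and TIMM50 rose 1.58-fold. TOMM22 averaged 77.6 CPM with the MITF vector and 76.1 CPM with scrambled siRNA, against 105 CPM with the empty vector. TIMM10 and TOMM5 were lower with the MITF vector (24.3 and 89.6 CPM) than with scrambled siRNA (34.3 and 109 CPM). With siRNA 5 rose and 6 fell, with the chaperonin gene HSPD1 up by 0.21 (SE 0.045) and TIMM50 at -0.29 (SE 0.044). The MALAT1 share given above was higher in the same MITF overexpression libraries, and its part in these falls was not tested.

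Nuclear genes of the respiratory complexes had 8 up and 22 down of 77 with the MITF vector (median -0.063), but 16 up and 12 down with total-count scaling, so their direction turned with the scaling. The number higher was 4 to 5 without MITF overexpression replicate 1 or 3 or empty vector replicate 2. NDUFS6, a subunit of complex I, averaged 76.9 ± 4.74 CPM with the MITF vector and 131 ± 9.66 CPM with the empty vector (-0.77 (SE 0.069)). NDUFB2 (-0.42 (SE 0.065)) and ATP5H (-0.34 (SE 0.050)) were also lower. With MITF siRNA 30 rose and 2 fell (median 0.089), while PPARGC1A and PPARGC1B fell. NDUFB11 averaged 89.2 ± 2.33 CPM with MITF siRNA against 69.5 ± 2.08 CPM with scrambled siRNA (0.36 (SE 0.052)). The number that rose was 16, 19 and 18 without MITF siRNA replicate 2, scrambled siRNA replicate 2 and scrambled siRNA replicate 3, and 22 with total-count scaling. The number that fell was 1 without MITF siRNA replicate 3, 5 without MITF siRNA replicate 2 or with total-count scaling, and 4 without empty vector replicate 2 or scrambled siRNA replicate 2. Genes of fusion, fission and turnover had 3 up and 5 down of 20 with the vector (6 and 4 with total-count scaling, and 5 up without MITF overexpression replicate 2), or 40% called beside 59.4% of all genes. PHB (-0.24 (SE 0.045)), STOML2 (-0.22 (SE 0.050)) and YME1L1 (-0.17 (SE 0.043)) fell, and the fusion gene OPA1 rose (0.18 (SE 0.045)). With siRNA 6 rose and 3 fell (3 rose without scrambled siRNA replicate 3), with the protease gene YME1L1 at 0.23 (SE 0.042) and the fusion gene MFN2 at -0.26 (SE 0.045).

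**Figure D4:**
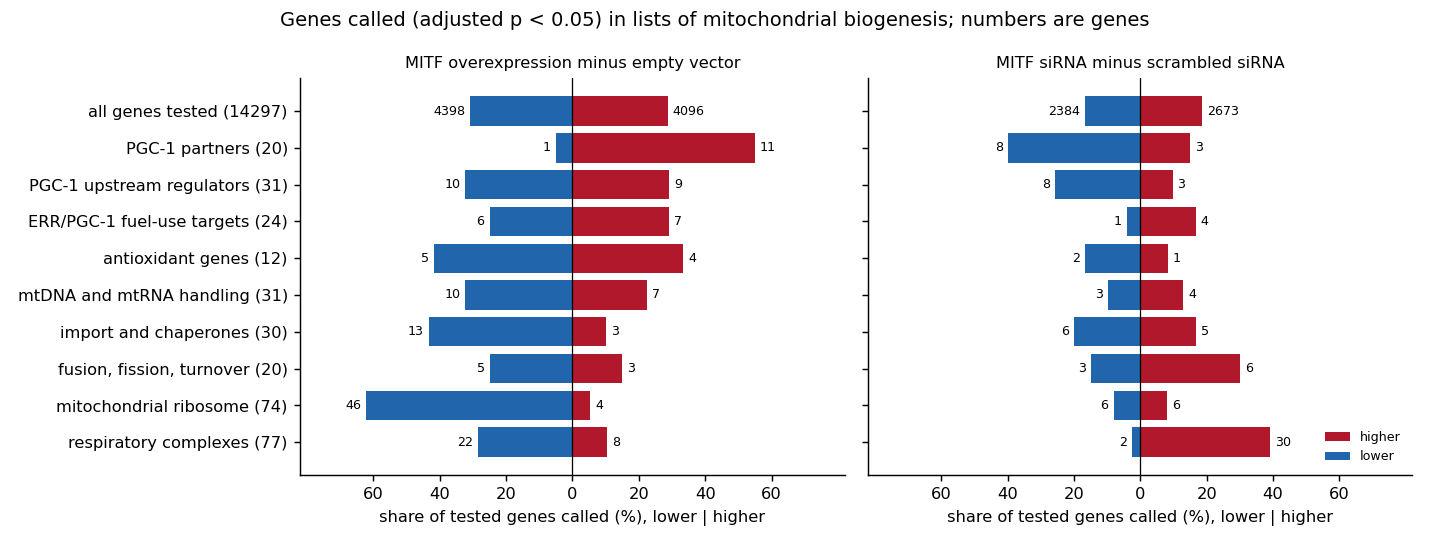
Share of the tested genes of each list that were called lower (left of 0) or higher (right of 0), with MITF overexpression (left panel) and MITF siRNA (right panel). Numbers beside bars are genes and numbers in brackets are genes tested. The mitochondrial ribosome shows 46 of 74 genes lower with the vector, and the respiratory complexes 30 of 77 higher with siRNA.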

How the data were processed

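RNA of 12 A2058 libraries was measured, per the labels' protocols, as stranded total RNA libraries with paired-end reads. Tools listed in the submitters' processing notes are STAR 2.6.0, featureCounts 1.6.3, SAMtools 1.10 and bcl2fastq 2.18.0, with build hg19. The sources used here give no settings, annotation or strand handling. The values deposited by the authors are raw whole-number counts per gene symbol, not normalized. 0 per-sample columns went unused.

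Genes were kept by filterByExpr (minimum count 10), scaled by TMM and fitted as 4 group means over 12 libraries by the edgeR quasi-likelihood method (edgeR 4.0.16, limma 3.58.1, R 4.3.3). Adjusted p-values (Benjamini-Hochberg, over all 14297 genes) under 0.05 were called. The standard error is the log2 fold change divided by the square root of F. Log2 CPM for likeness used a prior count of 2. The pairs MITF overexpression against either siRNA group and MITF siRNA against empty vector were added to order the levels. The steps were tested on simulated data.

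The members and gene lists were chosen with earlier results of these data known. Named list genes are the 4 with the smallest p with the vector and 2 with siRNA, of which the text gives most; 1 is not reported here. MITF overexpression replicates had 14671314 to 21246063 counts and empty vector replicates 7427637 to 14500191. Alternatives were RLE and total-count scaling, DESeq2 1.42.0, no low-count filter, fits of single comparisons, a replicate block and leaving out each library. GENCODE 29 (GRCh38) and RefSeq (GRCh38.p14) differ from the authors' build and served only for exon overlaps and promoter windows.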

Additional observations from a re-analysis of the deposited data

How the results depend on the processing

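Over 18 alternatives and 192 results, 3296 of 3418 recomputed values kept their direction and their side of the threshold (counts: stayed within 1.5 times). With the MITF vector the calls of PPARGC1A (log2 fold change 1.89 to 2.10 without single libraries), PPARGC1B (0.53 to 0.64), PPRC1 (0.26 to 0.35), ESRRA (0.33 to 0.45) and TFB2M (-0.43 to -0.33) held without each library in turn and under every other alternative. With siRNA that held for PPARGC1B (-0.56 to -0.49) and not for PPARGC1A (-0.41 to -0.22). Leaving out single libraries gave ranges of -0.17 to -0.097 for PPRC1, 0.094 to 0.21 for GABPA and -0.14 to -0.047 for TFAM with siRNA, and 0 to 1 regulators called higher. For the difference of responses the ranges were -0.29 to -0.17 for GABPA, -0.022 to 0.11 for NRF1 and 1 to 2 regulators called lower. Between scrambled siRNA and empty vector they were -0.22 to -0.11 for GABPA, -0.040 to 0.073 for NRF1, -0.042 to 0.035 for TFAM and 1 to 2 called lower. The cause was not tested. With total-count scaling TFAM turned to 0.025 with the vector, PPRC1 passed with siRNA (-0.17, adjusted p = 0.0299), and GABPA no longer passed in the difference of responses (-0.15) or between the controls (-0.16), leaving 1 regulator called lower in each. GABPA also did not pass by DESeq2 in the difference (-0.24) or between the controls (-0.18), nor between the controls without the low-count filter (-0.16) or in a fit of these libraries alone (-0.17), which left 1 called lower each time. Among the added pairs, total-count scaling turned MITF overexpression minus scrambled siRNA to 7.3e-04 for PPARGC1B and 0.031 for TFAM, and MITF overexpression minus MITF siRNA to 0.018 for GABPA; without single libraries the first ranged between -0.071 and 0.0027 for TFAM, the second between -0.025 and 0.083 for NRF1, and MITF siRNA minus empty vector between -0.063 and 0.032 for GABPA. Counts were 75 to 127 for PPARGC1A and 129 to 222 for NRF1 in the empty vector libraries, which limits their precision.

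Replicate numbers are shared between groups, but deviations of same-numbered libraries from their group means correlated at -0.12 to 0.064 in 18 pairs, and 3 of 12 libraries were closest to their own number. With a replicate block, 8408 genes were called with the vector (8494 without), 4960 with siRNA (5057 without), 8065 for the difference of responses (8134 without) and 5394 between the controls (5502 without), and no call of a regulator changed.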

Other observations

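Between scrambled siRNA and the empty vector, 18.9% of all tested genes were higher and 19.6% lower (38.5% called). In that comparison 1 of 74 mitochondrial ribosome genes rose and 25 fell (median log2 fold change -0.14), 35.1% called in all. Of the 77 respiratory complex genes 5 rose and 16 fell (median -0.041), and of the 20 partners of PGC-1 coactivators 12 rose and 1 fell (median 0.24). Of the 12 antioxidant genes 2 rose and 7 fell (median -0.12). Over all genes the median was -2.3e-04. MITF was 0.62 higher (log2, SE 0.051) with scrambled siRNA in the same comparison. Delivery by lipofection, viral transduction and selection cannot be told apart from the level of MITF there.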
